A study of Mus musculus with 4 samples.

Results

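The 10 integrin subunit genes described here were taken by symbol from a table of 24421 mouse genes, which holds 27 integrin subunit rows in all. They comprise 6 alpha subunit genes (Itga2, Itga3, Itga5, Itga6, Itga8 and Itgav) and 4 beta subunit genes (Itgb1, Itgb4, Itgb5 and Itgb7). RNA came from 4T07 cells, a murine mammary carcinoma line of strain Balb/cfC3H, harvested 48 hours after plating. There were 2 control libraries (CTL) and 2 libraries from cells labelled Six2 Overexpression (Six2, a homeobox transcription factor), and both groups shared the line and the culture conditions. The labels do not state how the Six2 cells or the control cells were made, whether a line is 1 clone, or whether replicates are separate cultures, so each p-value reflects only how these 4 libraries scatter, and that scatter could be technical.

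Integrins are cell-surface receptors built of 1 alpha and 1 beta chain, both of which cross the membrane. The extracellular heads bind matrix proteins such as laminin, fibronectin, vitronectin and collagen, and the tails recruit talin and kindlin to couple the receptor to the cytoskeleton. The beta1 chain pairs with many alpha chains, whereas beta4 pairs with alpha6 to form the receptor of hemidesmosomes. In mammary epithelium the laminin-binding integrins hold cells to the basement membrane, and fibronectin-binding integrins are known for their part in the migration of carcinoma cells.

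Values are RPKM, read counts normalised to gene length and to sequencing depth, so levels of different genes can be set side by side per length. Read totals lay between 41881864 and 49910629 in 3 libraries and reached 81524250 in Six2 replicate 2, where low values carry the least counting error. Six2 itself had 3 reads (0.0285 RPKM) in Six2 replicate 1 and 0 reads in each of the other libraries, where 0 allows up to 3 reads, so the libraries are called by their labels and the labelled overexpression was not seen in these values. Of the markers fixed for the labelled cell type, Krt8, Krt18, Vim and Cd44 were abundant in every library and Epcam lay below 1 RPKM in all 4. Fibroblast markers (0 of 7 at 1 RPKM or more in any library) and smooth muscle and myoepithelial markers (0 of 6) were near 0, and the summed RPKM of 6 endothelial markers was 1.02 to 1.55. In bulk RNA, fewer cells of a type and less RNA per cell cannot be told apart.

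No integrin subunit gene passed the test between the groups. The laminin receptor gene Itga3, the most abundant of the 10, was lower in both libraries labelled Six2 at 0.575 times the control mean. The common partner gene Itgb1 stood at 0.846 times and Itgb5 at 0.559 times the control mean, also without overlap of the groups. The fibronectin receptor genes Itga5 and Itgav and the laminin receptor gene Itga6 stood at 0.960, 1.00 and 1.03 times the control mean. All 10 members passed the filter of at least 1 RPKM in 2 libraries, and 0 of them had an adjusted p under 0.05 by limma-trend, where 0.113% of the 10654 genes tested did (0.0282% higher and 0.0845% lower). The count was also 0 by limma-voom on reads recovered from the RPKM steps, where only 3 genes were higher and 10 lower among the 10654 tested. The count of members was 5, all lower, when replicate number was added to the limma-trend fit as a block, where 23.5% of all genes were lower. No label ties the replicate numbers to shared cultures, so that fit was not the main one. At an unadjusted p under 0.05, 2 members were lower and 0 higher, against 9.66% and 7.36% of all genes tested. Groups did not overlap for 3 of 10 members, against 47.4% of genes tested. All 3 were lower in the libraries labelled Six2, a direction that 25.5% of genes took (21.9% were higher), so the share of members was near the background. The median log2 difference of the 10 was -0.15, beside -0.01 over all genes tested. Of the 10 members 7 lay below 0, as did 5554 of the 10654 genes tested.

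**Figure D1:**
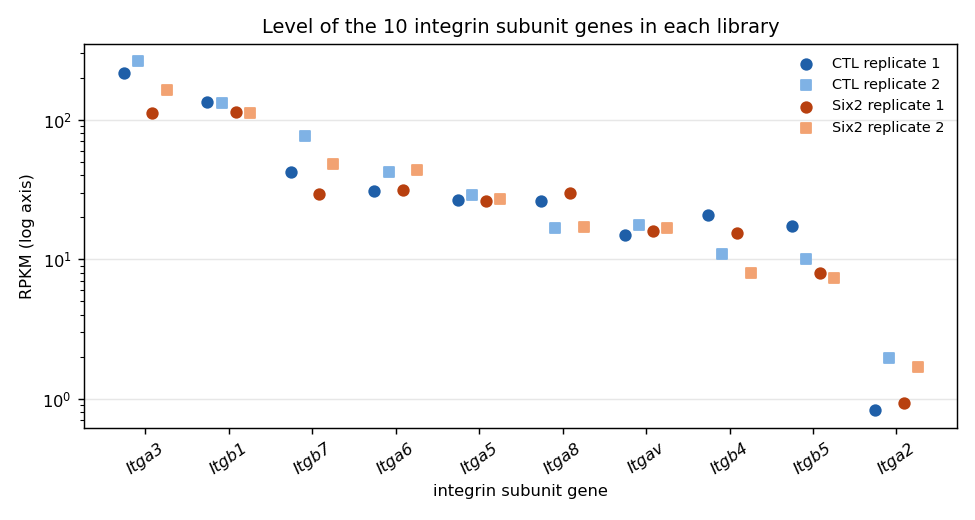
RPKM of each integrin subunit gene (log axis) in the 4 libraries, genes ordered by the control mean, 1 point per library. Itga3 spans 112 to 262 RPKM with both Six2-labelled libraries below both controls, and Itga2 lies lowest at 0.825 to 1.94 RPKM.

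Among the laminin receptors, Itga3 encodes the alpha3 chain, which pairs with beta1 and binds laminin-332 and laminin-511. The gene is protein coding (ENSMUSG00000001507.16, GRCm38 chromosome 11, 95044474 to 95076801, minus strand). Itga3 was at 217 and 262 RPKM in control replicates 1 and 2 and at 112 and 164 RPKM in Six2 replicates 1 and 2, from 29328 to 70366 reads per library. Both libraries labelled Six2 lay below both controls, and within each group replicate 2 was the higher. The means were 240 ± 32.0 and 138 ± 37.0 RPKM (SD, n = 2 per group). On the log2(RPKM + 1) scale, which compresses low genes, the difference was -0.81 (SE 0.224, 95% confidence interval -1.42 to -0.21). Its limma-trend adjusted p was 0.204. Leaving out Six2 replicate 1, the lowest library, brought the difference of Itga3 to -0.54, and leaving out Six2 replicate 2 brought it to -1.09.

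Itga6 encodes the alpha6 chain, which pairs with beta1 or beta4 and is a common surface marker of basal and progenitor mammary cells. The gene (chromosome 2, 71745616 to 71858416) was at 30.6 and 42.2 RPKM in the control libraries and at 31.3 and 43.4 RPKM in those labelled Six2. The groups overlapped almost fully, and replicate 2 was the higher in each. The log2 difference was 0.04 (SE 0.234, 95% interval -0.59 to 0.66), an interval that does not exclude changes of either direction.

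Itgb4 encodes the beta4 chain, known for its very long cytoplasmic tail that binds plectin in hemidesmosomes. The gene (chromosome 11, 115974709 to 116008412) was at 20.9 and 10.8 RPKM in the control libraries and at 15.4 and 7.92 RPKM in the libraries labelled Six2. Replicate 1 was the higher in each group, and Six2 replicate 1 lay above control replicate 2, so the groups overlapped. At each replicate number the library labelled Six2 was below the control, though no label ties the numbers to shared cultures. The limma-trend adjusted p of Itgb4 was 0.698 in the main fit. It was 0.00137 with replicate number as a block, where 23.5% of all genes were lower. The log2 difference of Itgb4 was -0.41 (SE 0.434, 95% interval -1.58 to 0.76). Itga6 and Itgb4 thus went opposite ways between replicates, and the ratio of Itga6 to Itgb4 RPKM was 1.46 and 3.89 in control cells and 2.03 and 5.47 in the libraries labelled Six2.

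Itgb1 encodes the beta1 chain shared by the alpha2, alpha3, alpha5, alpha6, alpha8 and alphav chains. The gene (ENSMUSG00000025809.15, chromosome 8, 128685654 to 128733200, plus strand) was at 135 and 132 RPKM in the control libraries and at 114 and 112 RPKM in the libraries labelled Six2. Replicates differed little (133 ± 2.16 and 113 ± 1.53 RPKM, SD, n = 2 per group), and the groups did not overlap. The log2 difference was -0.24 (SE 0.0854, 95% interval -0.47 to -0.01, limma-trend adjusted p = 0.280). Without any 1 of the 4 libraries the difference of Itgb1 lay between -0.26 and -0.22, the narrowest such range among the members that did not overlap.

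Among the receptors that recognise the RGD motif, Itga5 encodes the alpha5 chain of the classical fibronectin receptor. The gene (chromosome 15, 103344286 to 103366763) was at 26.7 and 28.7 RPKM in the control libraries and at 26.0 and 27.2 RPKM in the libraries labelled Six2. The groups overlapped, and the log2 difference of -0.06 (SE 0.098) had a 95% interval from -0.32 to 0.21. Itgav encodes the alphav chain, which pairs with beta1, beta3, beta5, beta6 and beta8 and binds vitronectin and latent TGF-beta. Itgav (chromosome 2, 83724397 to 83806916) was at 14.9 and 17.7 RPKM in the control libraries and at 15.9 and 16.7 RPKM in the libraries labelled Six2, the latter lying between the controls. The log2 difference was 0.006 (SE 0.123, 95% interval -0.33 to 0.34). For both genes the intervals leave out a change as large as that of the Itga3 means.

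Itga8 encodes the alpha8 chain, which pairs with beta1, binds nephronectin and is known for its role in the outgrowth of the ureteric bud in the kidney. The gene (chromosome 2, 12106632 to 12301922) was at 26.2 and 16.7 RPKM in the control libraries and at 29.7 and 17.1 RPKM in the libraries labelled Six2. Replicate 1 was the higher in each group, by more than the groups differed. The log2 difference was 0.10 (SE 0.344, 95% interval -0.82 to 1.03). Leaving out 1 library moved it between -0.28 and 0.48, across 0.

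Itgb5 encodes the beta5 chain, which pairs with alphav as a vitronectin receptor. The gene (ENSMUSG00000022817.15, chromosome 16, 33829665 to 33949338, plus strand) was at 17.4 and 10.0 RPKM in the control libraries and at 8.02 and 7.28 RPKM in the libraries labelled Six2. Control replicate 1 stood above the other 3 libraries, which lay within 7.28 to 10.0 RPKM. The log2 difference was -0.72 (SE 0.272, 95% interval -1.45 to 0.01, limma-trend adjusted p = 0.297). Without control replicate 1 the difference of Itgb5 was -0.35. Itgb5 lies on chromosome 16, whose tested genes had a median difference of -0.22. With the median of each chromosome removed, the difference of Itgb5 was -0.50 (limma-trend adjusted p = 0.578).

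Itga2 encodes the alpha2 chain of a collagen receptor and was by far the lowest member. The gene (chromosome 13, 114833081 to 114932100) was at 0.825 and 1.94 RPKM in the control libraries and at 0.936 and 1.68 RPKM in the libraries labelled Six2, or 150, 343, 197 and 577 reads. Replicate 2 was the higher in each group and alone carried the gene over the filter. The log2 difference of Itga2 was -0.03 (SE 0.307, 95% interval -0.85 to 0.80) and took the other sign, 0.05, by limma-voom.

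Itgb7 encodes the beta7 chain, known from lymphocytes, where it pairs with alpha4 or alphaE and binds MAdCAM-1 or E-cadherin. In these carcinoma cells it was the third most abundant of the 10 by mean RPKM in both groups. The gene (chromosome 15, 102215995 to 102231944, minus strand) was at 42.3 and 76.8 RPKM in the control libraries and at 29.3 and 48.5 RPKM in the libraries labelled Six2. Replicate 2 was the higher in each group, and Six2 replicate 2 lay above control replicate 1, so the groups overlapped. At each replicate number the library labelled Six2 was below the control, though no label ties the numbers to shared cultures. With replicate number as a block the limma-trend adjusted p of Itgb7 was 0.000264, in a fit where 23.5% of all genes were lower. The log2 difference of Itgb7 was -0.58 (SE 0.384, 95% interval -1.62 to 0.45, limma-trend adjusted p = 0.514). It was -0.16 without control replicate 2 and -1.01 without control replicate 1.

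**Figure D2:**
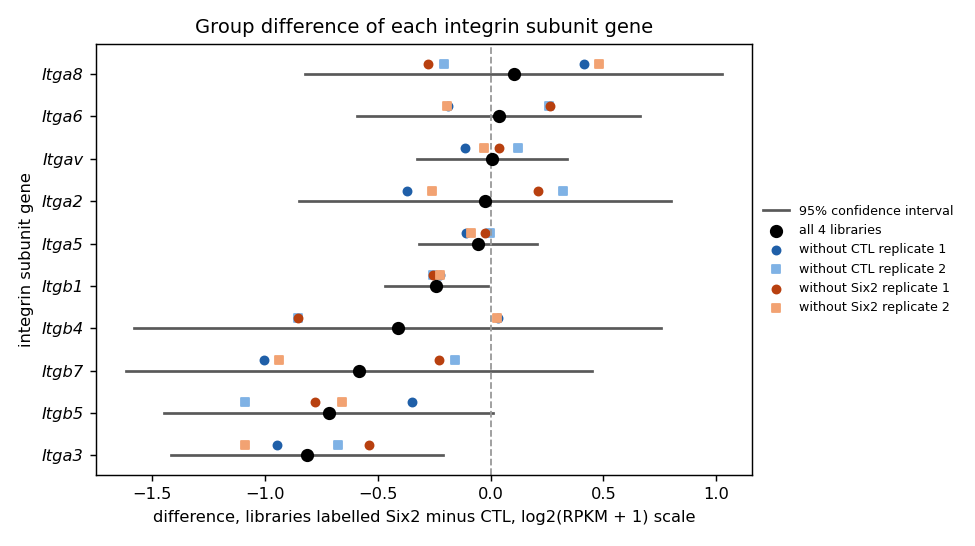
Difference of each integrin subunit gene on the log2(RPKM + 1) scale, libraries labelled Six2 minus CTL: black points use all 4 libraries with their 95% confidence interval from limma-trend, and small points leave out 1 library each. The intervals of Itga3 (-1.42 to -0.21) and Itgb1 (-0.47 to -0.01) lie below 0 before adjustment over all genes, and neither gene passed after it.

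The promoters of Itga3, Itgb1 and Itgb5 are printed because these 3 members were lower in both libraries labelled Six2. Each window holds the 250 bases before a RefSeq start site on GRCm38.p6, read 5′ to 3′ on the strand of the gene, and Itga3 is shown at the more upstream of its start sites. Capitals mark matches on either strand to a GC box (GGGCGG), the only one of the 4 motifs searched that these windows hold.
Itga3, chr11:95076715-95076964, minus strand: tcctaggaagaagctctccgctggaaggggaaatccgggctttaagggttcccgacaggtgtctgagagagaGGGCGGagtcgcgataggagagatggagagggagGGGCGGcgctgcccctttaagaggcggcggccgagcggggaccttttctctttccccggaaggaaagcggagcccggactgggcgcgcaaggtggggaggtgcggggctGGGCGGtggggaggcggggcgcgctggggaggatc
Itgb1, chr8:128685404-128685653, plus strand: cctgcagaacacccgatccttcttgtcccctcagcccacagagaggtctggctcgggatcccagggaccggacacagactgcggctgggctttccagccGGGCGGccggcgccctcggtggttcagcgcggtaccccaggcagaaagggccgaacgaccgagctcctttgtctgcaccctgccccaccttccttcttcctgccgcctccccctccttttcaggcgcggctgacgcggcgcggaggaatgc
Itgb5, chr16:33829415-33829664, plus strand: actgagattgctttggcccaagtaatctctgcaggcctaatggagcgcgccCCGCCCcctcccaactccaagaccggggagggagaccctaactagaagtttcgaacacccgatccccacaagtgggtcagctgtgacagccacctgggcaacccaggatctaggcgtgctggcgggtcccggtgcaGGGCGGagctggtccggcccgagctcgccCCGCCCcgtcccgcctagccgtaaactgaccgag
The windows had 67.6%, 68.0% and 65.2% G or C, where the median of 32851 windows of that length was 52.4%. Windows of members whose groups overlapped were also above that median, from 55.6% (Itga5) to 64.4% (Itgav). The other Itga3 window, not printed, was below it at 50.8%. Itga3 and Itgb5 held 3 GC boxes each and Itgb1 held 1, and 32.7% of all windows held at least 1. Of the 9 windows found for members, 5 held a GC box, among them that of Itga5 with 2, a gene whose groups overlapped. The other motifs, also sought on both strands, were the core of a MEF3 site (TCAGGTT, in 3.49% of all windows), the element known to bind homeodomain factors of the Six2 family, an AP-1 site (TGANTCA, in 6.75%) and a CCAAT box (CCAAT, in 33.8%). RefSeq entries matched 8 of the 10 members with 9 windows, and 0 of the 9 held the MEF3 core. The Itga3 window that is not printed held 1 GC box and 1 CCAAT box. Such a match or its absence describes the letters of the window and no binding.

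Set side by side per length, Itga3 made up most of the alpha subunit RNA. Its share of the summed RPKM of the 6 alpha members was 68.6% and 71.0% in control cells and 51.8% and 60.7% in the libraries labelled Six2. Both libraries labelled Six2 lay below the controls, with a difference of -13.5 percentage points between the means. The summed RPKM of the alpha members was 316 and 369 in control cells and 216 and 270.0 in the libraries labelled Six2, a difference in means of -100.0, beside -102 for Itga3 alone. The sum of the other 5 alpha members overlapped between the groups, at 99.2 and 107 against 104 and 106 RPKM. The shares of Itga5 (8.43% and 7.78% against 12.1% and 10.1%), Itga6 (9.69% and 11.4% against 14.5% and 16.1%) and Itgav (4.71% and 4.79% against 7.38% and 6.19%) were each higher in both of the libraries labelled Six2. The RPKM of each of these genes overlapped between the groups, and a share also rises when Itga3 in the sum is lower. The shares of Itga8 and Itga2 overlapped. The ratio of Itga3 to Itga6 was 7.08 and 6.22 in control cells and 3.57 and 3.78 in the libraries labelled Six2, apart by more than either group's spread. With 2 libraries against 2 a two-sided exact permutation test cannot go below p = 0.333, and no test was run on these shares and ratios.

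On the beta side, Itgb1 held 62.6% and 57.4% of the summed RPKM of the 4 beta members in control cells and 68.3% and 63.6% in the libraries labelled Six2. Itgb7 came next, with 19.6% and 33.5% in control cells and 17.6% and 27.7% in the libraries labelled Six2. The higher share of Itgb1 did not hold over all beta rows of the table, where it was 44.5% and 45.5% against 45.5% and 46.5% and the groups overlapped. The summed RPKM of the 4 beta members was 215 and 229 in control cells and 166 and 175 in the libraries labelled Six2. Per length, the 6 alpha members together stood at 2.35 and 2.81 times Itgb1 in control cells and at 1.90 and 2.42 times in the libraries labelled Six2, which overlapped. The 10 members together took 0.257% and 0.285% of library reads in control cells and 0.185% and 0.214% in the libraries labelled Six2.

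**Figure D3:**
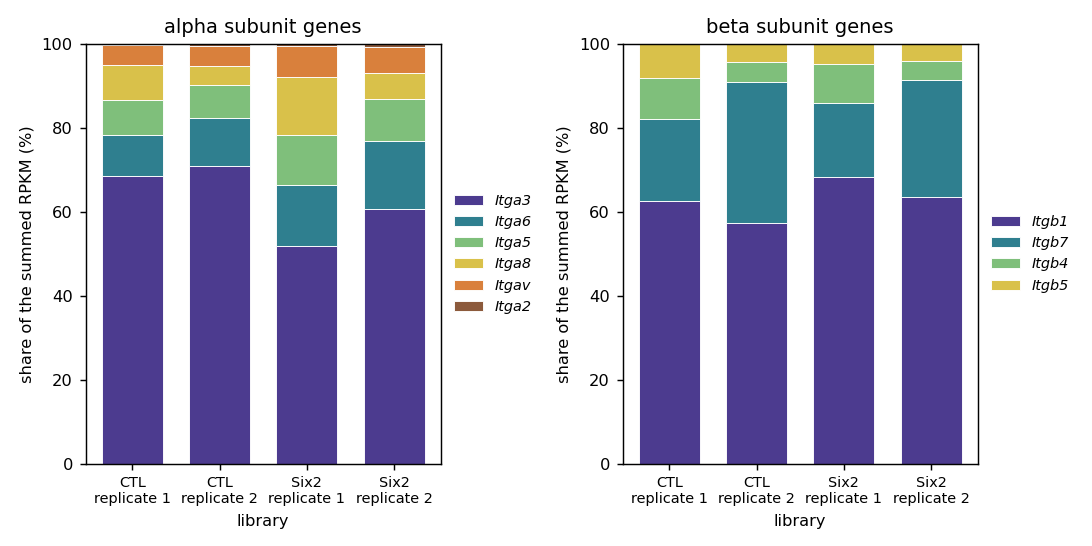
Share of each gene in the summed RPKM of the 6 alpha members (left) and of the 4 beta members (right), 1 bar per library, bars from 0 to 100%. Itga3 takes 68.6% and 71.0% of the alpha sum in the control libraries and 51.8% and 60.7% in the libraries labelled Six2.

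Each member differed between replicates in the same direction in both groups. The median absolute difference between replicates on the log2(RPKM + 1) scale was 0.53 over the 10 members in control cells and 0.46 in the libraries labelled Six2, against 0.18 and 0.17 over all genes tested. The members were not alike in this: 8 of 10 exceeded the all-gene median in control cells and 6 of 10 in the libraries labelled Six2, with Itga5 and Itgb1 below it in both groups and Itgav and Itgb5 below it in the second. Replicate 2 was the higher in both groups for 6 members (Itga2, Itga3, Itga5, Itga6, Itgav and Itgb7) and the lower in both for 4 (Itga8, Itgb1, Itgb4 and Itgb5). The direction was thus shared for 10 of 10 members, where it was shared for 82.9% of genes tested. For 7 of 10 members the mean difference between replicates was larger than the group difference, which held for 50.4% of genes tested. Itgb4 was at 0.518 times its replicate 1 value in control replicate 2 and at 0.513 times in Six2 replicate 2, and Itgb7 at 1.82 and 1.66 times. The exceptions, whose group difference was the larger, were Itga3, Itgb1 and Itgb5.

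**Figure D4:**
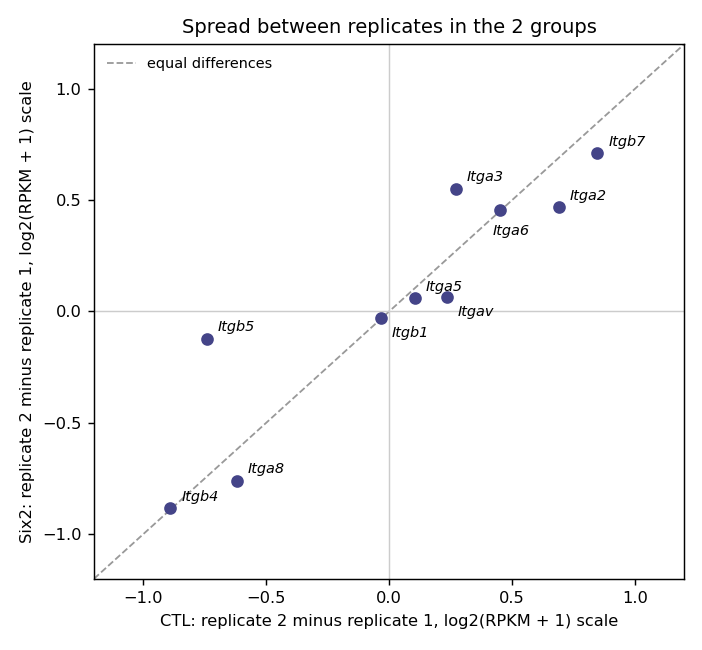
Replicate 2 minus replicate 1 on the log2(RPKM + 1) scale for each integrin subunit gene, control libraries on the x axis and libraries labelled Six2 on the y axis, with the line of equal differences. Itgb7 and Itga2 sit at the upper right, Itgb4 and Itga8 at the lower left, Itgb1 near 0, and Itgb5 lies off the line at -0.74 on the x axis and -0.12 on the y axis.

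Of the 17 integrin subunit genes of the table outside these 10, only Itgb2 and Itgb3 passed the filter. Itgb3 encodes the beta3 chain, which pairs with alphav in many cell types and with alphaIIb in platelets. It was at 32.6 and 16.1 RPKM in the control libraries and at 12.0 and 4.88 RPKM in the libraries labelled Six2, apart by group but with a wide spread (log2 difference -1.45, SE 0.518, limma-trend adjusted p = 0.280). Without Six2 replicate 2 the difference of Itgb3 was -0.88, and without Six2 replicate 1 it was -2.03. The ratio of Itgb3 to Itgav was 2.19 and 0.909 in control cells and 0.755 and 0.292 in the libraries labelled Six2, and that of Itgb5 to Itgav was 1.17 and 0.565 against 0.504 and 0.436. Itgb2 encodes the beta2 chain of leukocyte integrins and was at 54.5 and 43.7 RPKM in the control libraries and at 71.4 and 59.6 RPKM in the libraries labelled Six2 (log2 difference 0.41, SE 0.162, limma-trend adjusted p = 0.314). The difference of Itgb2 was 0.25 without control replicate 2 and 0.57 without control replicate 1.

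RNA of the known alpha partners of the beta2 and beta7 chains was very low in all 4 libraries. For Itgb7, the partner gene Itga4 had 1 read in control replicate 1 and 0 in the other libraries, and Itgae had 14 and 3 reads in the control libraries and 21 and 13 in the libraries labelled Six2 (0.0157 to 0.0920 RPKM). For Itgb2, the partner genes Itgal, Itgam, Itgax and Itgad were at most 0.0257 RPKM in any library, where Itgam had 4 to 8 reads. Itgam shares 3450 exon bases with Gm49368 on the same strand, and Itgad and Itga4 also share exon bases with other genes. How reads of shared bases were counted is not given, so the values of these genes could be too low. Of 10 leukocyte markers 7 lay below 1 RPKM in all 4 libraries, Adgre1 was at 0 throughout, and the pan-leukocyte gene Ptprc was at 0.00409 and 0 RPKM in the control libraries and 0 and 0.00433 RPKM in the libraries labelled Six2. The summed RPKM of the leukocyte list was 68.2 and 51.8 in control cells and 81.2 and 65.0 in the libraries labelled Six2, carried by Itgb2 and the lysosomal gene Cd68. The platelet genes Gp1ba and Gp9 were likewise at or near 0, the latter at most 0.0247 RPKM, and Itga2b at most 0.628 RPKM. The summed RPKM of the 6 platelet markers, 33.8 and 16.8 against 12.7 and 5.32, was carried by Itgb3.

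**Figure D5:**
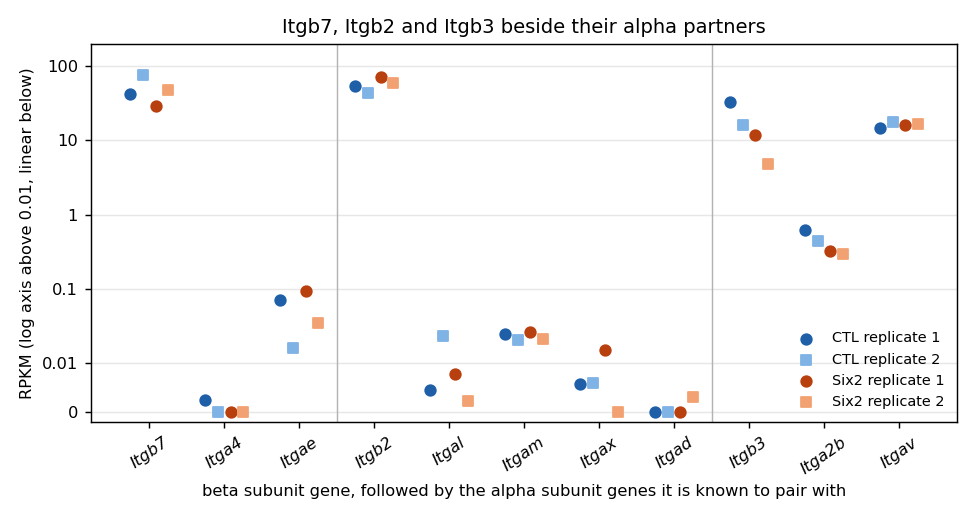
RPKM in the 4 libraries of Itgb7, Itgb2 and Itgb3, each followed by the alpha subunit genes it is known to pair with (log axis above 0.01 RPKM, linear below). Itgb7 and Itgb2 lie at 29.3 RPKM or more in every library while Itga4, Itgae, Itgal, Itgam, Itgax and Itgad stay below 0.1 RPKM. Itgb3 spans 4.88 to 32.6 RPKM, beside its partner genes Itgav at 14.9 to 17.7 RPKM and Itga2b at no more than 0.628 RPKM.

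Genes that act with integrins were taken from 3 lists. Of 39 ligand genes 22 were tested, and 0 passed over all genes by limma-trend or limma-voom, with 0 higher and 6 lower at an unadjusted p under 0.05 by limma-trend (7.36% and 9.66% of all genes tested). Their median log2 difference was -0.12 beside -0.01 over all genes, with 8 lower and 3 higher without overlap (25.5% and 21.9% of all genes). The abundant ligand osteopontin (Spp1), which binds alphav integrins, was at 5743 and 3335 RPKM in the control libraries and at 5678 and 3355 RPKM in the libraries labelled Six2, overlapping and with replicate 1 the higher in each group. Fibronectin (Fn1), the ligand of alpha5beta1, was at 667 and 407 RPKM in the control libraries and at 287 and 206 RPKM in the libraries labelled Six2 (log2 difference -1.10). Fn1 lies on chromosome 1, whose tested genes had a median difference of 0.32. With the median of each chromosome removed, the difference of Fn1 was -1.42. Lama4, a laminin chain gene, was at 11.4 and 4.96 RPKM against 2.63 and 1.27 RPKM. Of the matricellular ligands, Ctgf was at 22.3 and 24.7 RPKM against 3.01 and 9.39 RPKM, and Cyr61 at 11.4 and 27.7 RPKM against 3.16 and 10.3 RPKM. Ctgf had a limma-trend adjusted p of 0.183 with all 4 libraries. Its difference of -1.92 ranged from -2.61 to -1.24 when 1 library was left out.

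Of 34 genes of integrin activation and the adhesion complex 30 were tested and 0 passed over all genes by limma-trend or limma-voom, with 1 higher and 5 lower at an unadjusted p under 0.05 by limma-trend, beside the same 7.36% and 9.66% of all genes. The median was -0.08, with 13 lower and 4 higher without overlap, beside 25.5% and 21.9% of all genes. Talin 2 (Tln2), a paralogue of the talin that opens the integrin head, was at 5.33 and 5.20 RPKM in the control libraries and at 2.04 and 2.43 RPKM in the libraries labelled Six2 (log2 difference -0.96, SE 0.123, limma-trend adjusted p = 0.102). Zyxin (Zyx), of mature focal adhesions, was at 117 and 127 RPKM against 72.1 and 83.3 RPKM, and the docking protein gene Nedd9 at 20.8 and 11.5 RPKM against 5.30 and 5.00 RPKM. The abundant genes Actn4, encoding an actin crosslinker, and Tns4, encoding a tensin that binds beta tails, differed by 0.06 and -0.27.

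All 18 membrane partner genes of the table were tested and 0 passed over all genes by limma-trend or limma-voom, with 0 higher and 4 lower at an unadjusted p under 0.05 by limma-trend (all genes 7.36% and 9.66%). The median was -0.15, with 7 lower and 2 higher without overlap (all genes 25.5% and 21.9%). The tetraspanin gene Cd9, whose protein sits beside beta1 integrins, was at 257 and 199 RPKM in the control libraries and at 142 and 99.8 RPKM in the libraries labelled Six2 (log2 difference -0.92, limma-trend adjusted p = 0.182). Emp2, which encodes a tetraspan membrane protein, was at 52.2 and 44.1 RPKM against 29.1 and 27.6 RPKM, and caveolin 1 (Cav1) at 5.05 and 9.23 RPKM against 1.93 and 3.65 RPKM. Emp2 lies on chromosome 16, as Itgb5 does, and its log2 difference of -0.74 became -0.52 with the median of each chromosome removed. The tetraspanin gene Cd63 differed by 0.05 and Lgals3, which encodes galectin-3, by 0.26. Leaving out 1 library gave Lgals3 0.12 (without Six2 replicate 1) to 0.39 (without Six2 replicate 2), and Cd63 at most 0.11 (without control replicate 2) and 9.6e-05 without control replicate 1.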

How the data were processed

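Polyadenylated RNA of 4 libraries, grouped by their titles, was prepared with a TruSeq stranded mRNA kit, per the labels' protocols. The submitters' processing notes name HTSeq 0.8.0, TopHat2 2.1.1, Bowtie2, Picard 2.9.4, SAMtools 1.5, FastQC 0.11.5 and bcl2fastq 1.8.4, with mm10 and GRCm38 as builds. Neither the annotation nor the strand setting of the counting is given, so reads of Itga8, Itgav and Itgb4 cannot be told apart from those of opposite-strand genes that share 372, 634 and 537 exon bases with them. The authors deposited RPKM values for 24421 genes.

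Whole reads and read totals were recovered from the steps of these values, for 14459 of 14459 genes above 0 in 3 or more libraries, within 0.001 reads. Where reads and length share a divisor, the read number comes out too low. The limit of 3 reads behind a value of 0 covers counting error only.

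limma 3.58.1 in R 4.3.3 fitted log2(RPKM + 1) on group with a variance trend (limma-trend), over the 10654 genes that reached 1 RPKM in 2 or more libraries, and two-sided p-values were adjusted by the Benjamini-Hochberg method and called under 0.05. The procedure was tested on simulated reads drawn without a shared replicate effect, so that test does not measure its error or power in these libraries. Alternatives were a replicate block, a pseudocount of 0.1, no filter, median-of-ratios scaling, limma-voom on recovered reads, chromosome medians removed, and each library left out. Shares with all alpha rows as the denominator, and shares with each library left out, were added after seeing the data. The members and lists were chosen with earlier results of these data known. All members were named. From each list the 3 tested genes of largest absolute difference and the 2 of highest mean RPKM were named, with any called (none). Positions are from GENCODE M21 (GRCm38), which placed 96.3% of tested genes, and promoters from RefSeq.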

Additional observations from a re-analysis of the deposited data

How the results depend on the processing

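Over all genes, 3 were higher and 9 lower in the libraries labelled Six2. These counts became 0 and 0 with no filter on low values, 4 and 24 with median-of-ratios scaling, and ranged from 2 to 18 higher and from 9 to 50 lower when 1 library was left out. The 10 integrin members had 0 calls under each of these settings, including each library left out (0 to 0). Same-numbered libraries deviated together across genes (r = 0.818 between the replicate differences of the groups), but with 2 pairs and no label tying the numbers to shared cultures they were not taken as pairs. With the replicate block 2133 genes were higher and 2506 lower, and 5 members were lower (Itga3 with limma adjusted p = 0.000203, Itgb7 0.000264, Itgb4 0.00137, Itgb5 0.00383 and Itgb1 0.00656), against 23.5% of all genes. Of the 17 other named genes, 12 were lower and 2 higher with the block (Itgb3 with limma adjusted p = 1.87e-05, Itgb2 with 0.000749). Many of these genes were named for a large absolute difference in the same data. Their count therefore cannot be compared with the share of all genes. The sign of Itga2 turned by limma-voom (0.049) and with chromosome medians removed (0.0377), and that of Spp1 with scaling (0.0376), limma-voom (0.0048) and chromosome medians removed (0.040). Leaving out 1 library moved Itga2 from -0.37 to 0.32, Itga6 from -0.19 to 0.26, Itga8 from -0.28 to 0.48, Itgav from -0.11 to 0.12, Itgb4 from -0.86 to 0.033, Spp1 from -0.40 to 0.39 and Actn4 from -0.015 to 0.14. The cause was not tested. The difference in the share of Itga3 among alpha members was -13.5 points, -13.8 over all alpha rows, and -18.0 to -9.06 without 1 library. Scaling moved the median of all genes from -0.01 to 0.03.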

Other observations

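The integrin subunit genes below the filter included the collagen receptor genes Itga1 (0.677 to 0.903 RPKM over the 4 libraries) and Itga11 (at most 0.00484 RPKM) and the laminin receptor gene Itga7 (0.760 to 0.947 RPKM). Itga10, a collagen receptor gene of cartilage, was at 0.828 and 0.412 RPKM in the control libraries and at 2.74 and 0.625 RPKM in Six2 replicates 1 and 2, or 180, 87, 689 and 257 reads. It shares 1739 exon bases with Gm42957 on the same strand. Itgb8, which encodes a partner of alphav, was at 0.255 and 0.162 RPKM in the control libraries and at 0.0971 and 0.0792 RPKM in Six2 replicates 1 and 2. Itgb6, another such partner, had at most 3 reads in any library.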
